A study of Mus musculus with 8 samples.

Results

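Expression of 9 transcription factors that define the identity of microglia, the brain's resident macrophages, was described. The series compared microglia labelled as repopulating, which return after depletion, with cells labelled as wild-type microglia and as bone-marrow macrophages. The members, chosen by name, were Sall1, Sall3, Mef2a, Mef2c, Irf8, Spi1, Maf, Bhlhe41 and Ikzf1. All 9 of 9 were found among the 23413 genes of the deposited table, 8 under these symbols and Spi1 under its older symbol Sfpi1. All 9 passed the filter on low values, which 11415 genes passed. The 8 libraries were labelled as wild-type microglia of strain DTR (2 libraries), repopulating microglia of strain DTRmg (3 libraries) and bone-marrow macrophages of strain DTRmg (3 libraries). Their shared protocol text gave tamoxifen, 2 mg subcutaneously at postnatal days 12 and 14, then, for depletion, repeated intraperitoneal diphtheria toxin at 500 ng. It described papain digestion of brain, a Percoll gradient and cell sorting. The text stood unchanged on every sample, so it did not say which groups received the toxin, nor the age at collection. The labels did not give the alleles or promoter behind the names DTR and DTRmg, the place from which bone-marrow macrophages were taken, or whether replicates came from separate animals. P-values therefore measure the spread between these libraries, which may be technical. Strain label and cell group cannot be told apart in either comparison with wild-type microglia. Libraries held 5918944 to 12476427 reads.

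Levels are normalised counts, which are reads of a gene divided by 1 size factor per library. Tests were made with limma on log2(normalised count + 1), and a gene was called changed at a Benjamini-Hochberg adjusted p under 0.05 over all 11415 genes. The labelled cell types were set against marker genes. The summed level of 12 microglial markers was 485577 to 532896 in wild-type microglia, 322850.3 to 374194 in repopulating microglia and 105252 to 117829 in bone-marrow macrophages, and none of the 12 was at 0 in any group. All 12 were lower in bone-marrow macrophages than in wild-type microglia, so the libraries labelled as bone-marrow macrophages still held these transcripts at a reduced level. The 12 monocyte and bone-marrow macrophage markers summed to 18034 to 21407, 3856 to 18922 and 44455 to 55739 in the same order of groups. The 9 neutrophil markers summed to 26744 to 28993 in wild-type microglia, against 1680.5 to 3109 in repopulating microglia and 818 to 1371 in bone-marrow macrophages. Neutrophil transcripts thus moved with the wild-type group, and their part in the comparisons below was not tested. In bulk libraries, fewer cells of a type and less RNA per cell cannot be told apart.

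A macrophage is built by layers of transcription factors. PU.1, the protein of Spi1, is an Ets-family factor that opens enhancers in all myeloid cells, and IRF8 and Ikaros, the protein of Ikzf1, act beside it in haematopoietic cells. In the brain, further factors such as the zinc finger proteins SALL1 and SALL3, the MEF2 factors and c-MAF act on the sites that PU.1 has marked, and SALL1 is the best known factor that separates microglia from other macrophages.

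Counted over the 9 factors, the 3 comparisons differed. None of the 9 was called between repopulating and wild-type microglia, where limma called 8.61% of all 11415 genes (4.86% higher and 3.75% lower), and 1 of 9 (Bhlhe41) had an unadjusted p under 0.05. The count tests edgeR and DESeq2 called 0 of 9 as well. With 8.61% of genes called, a count of 0 among 9 is near the background, and the intervals given with each gene below show the sizes these libraries leave possible. The groups did not overlap for 3 of 9 factors (Maf, Ikzf1, Bhlhe41), against 40.4% of all genes. Without repopulating replicate 3, limma called 2958 genes in this comparison in place of 983, and 0 of the 9. Without wild-type replicate 1 or 2 or repopulating replicate 1 it called 67, 147 and 468 genes, again with 0 of the 9.

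Between bone-marrow macrophages and wild-type microglia, 5 of 9 factors were lower (Sall1, Sall3, Ikzf1, Mef2c, Irf8) and 0 were higher. Limma called 43.5% of all genes here, 22.2% lower and 21.3% higher. The groups did not overlap for 6 of 9, against 75.8% of all genes. The median log2 fold of the 9 was -0.43, beside -0.01 over all genes. Leaving out bone-marrow replicate 1, bone-marrow replicate 3 or wild-type replicate 2 left 3 of the 9 called, and leaving out bone-marrow replicate 2 or wild-type replicate 1 left 4. Scaling to equal totals left 3, and moved the median of all genes to 0.13 and the split of all calls from 2428 higher and 2532 lower to 3000 higher and 2069 lower.

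Between repopulating microglia and bone-marrow macrophages, 5 of 9 were higher (Sall1, Sall3, Ikzf1, Bhlhe41, Irf8) and 0 were lower, where limma called 30.9% of all genes, 16% higher and 14.9% lower. The groups did not overlap for 5 of 9, against 46% of all genes. The median log2 fold of the 9 was 0.55, beside 0.00 over all genes. Equal totals left 3 of the 9 called and moved the median of all genes to -0.25, with 1172 higher and 2924 lower calls in place of 1826 and 1700. The comparisons share libraries, so the counts are not separate evidence. Sall1, Sall3 and Ikzf1 kept their calls in both comparisons with bone-marrow macrophages under all 21 alternatives tried.

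Promoter sequences of RefSeq were available here for 6 of the 9 genes, in 12 windows of 250 bases before an annotated start (build GRCm38.p6). The first listed windows of the 4 genes below are shown because each of these genes was lower in bone-marrow macrophages than in wild-type microglia. They are Sall1 at chr8:89044163-89044412 on the minus strand, Mef2c at chr13:83503784-83504033, Irf8 at chr8:120736108-120736357 and Ikzf1 at chr11:11685675-11685924, the last 3 on the plus strand. Capitals mark matches to GAGGAA, the core of a PU.1 box, or to TATAAA, the TATA box, on either strand, so that TTTATA is the reverse complement of TATAAA.
Sall1: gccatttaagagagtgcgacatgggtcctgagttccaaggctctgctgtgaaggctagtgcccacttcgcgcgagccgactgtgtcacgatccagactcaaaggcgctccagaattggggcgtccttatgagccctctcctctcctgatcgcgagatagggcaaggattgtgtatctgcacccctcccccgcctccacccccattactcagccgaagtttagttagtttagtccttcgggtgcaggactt
Mef2c: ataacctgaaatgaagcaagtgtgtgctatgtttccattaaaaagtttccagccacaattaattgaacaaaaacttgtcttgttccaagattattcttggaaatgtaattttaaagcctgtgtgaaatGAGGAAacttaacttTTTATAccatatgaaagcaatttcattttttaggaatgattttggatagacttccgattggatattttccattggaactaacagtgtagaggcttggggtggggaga
Irf8: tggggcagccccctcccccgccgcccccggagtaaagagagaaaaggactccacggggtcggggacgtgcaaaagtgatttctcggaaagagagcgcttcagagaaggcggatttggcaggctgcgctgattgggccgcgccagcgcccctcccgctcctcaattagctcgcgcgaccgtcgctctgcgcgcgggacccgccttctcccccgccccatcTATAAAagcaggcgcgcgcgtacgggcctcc
Ikzf1: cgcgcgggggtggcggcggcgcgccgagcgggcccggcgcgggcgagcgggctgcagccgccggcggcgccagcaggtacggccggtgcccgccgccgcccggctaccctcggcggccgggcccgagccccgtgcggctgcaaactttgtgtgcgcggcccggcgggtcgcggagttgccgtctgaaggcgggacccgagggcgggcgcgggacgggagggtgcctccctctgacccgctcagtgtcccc
These 4 windows differed in the motifs searched. Mef2c held GAGGAA 122 bases and TATAAA 107 bases before its start, Irf8 held TATAAA 31 bases before its start, and the Sall1 and Ikzf1 windows held neither. Over all 12 windows, GAGGAA was found in 3, while 23.3% of 32851 RefSeq windows of the same length held it. TATAAA was found in 3 of 12 windows and in 12.4% of all windows. CACGTG, the E-box bound by clock factors and by BHLHE41, was found in 1 of 12 windows, 153 bases before the start of Bhlhe41, and in 6.02% of all windows. No member window held an interferon response core, searched as GAAA and GAAA spaced by 2 bases (2.98% of all windows), or a MEF2 box, searched as CTA and TAG spaced by 4 bases (3.2% of all windows). The motifs do not overlap in these windows, and a match describes letters and no binding.

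The lineage factor Spi1 had the narrowest range of the 9 genes over the 8 libraries. Spi1 lies on chromosome 2 at 91082390 to 91115756 on the plus strand (GENCODE vM21, build GRCm38, as for all gene positions here). Its normalised counts were 2554 and 2475 in wild-type microglia, 1908, 2323 and 2748 in repopulating microglia, and 2255, 2205 and 2453 in bone-marrow macrophages. The highest and the lowest library, 1.44-fold apart, were both repopulating microglia. The log2 fold was -0.13 for repopulating against wild-type microglia (95% interval -0.50 to 0.24) and -0.13 for bone-marrow macrophages against wild-type cells (-0.49 to 0.24). Between repopulating microglia and bone-marrow macrophages it was -0.00 (-0.33 to 0.33). All 3 bone-marrow libraries lay below both wild-type libraries, but limma made no call (adjusted p = 0.548).

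Irf8 encodes an interferon regulatory factor that binds DNA together with PU.1 and is needed for microglial development. The gene lies on chromosome 8 at 120736358 to 120756694 on the plus strand. Its normalised counts were 4773 and 4500.1 in wild-type microglia, 4759, 5321 and 5024 in repopulating microglia, and 3334, 3484 and 3514 in bone-marrow macrophages. Every microglial library of either kind lay above every bone-marrow library, while the wild-type and repopulating ranges overlapped. Irf8 fell by 0.43 on the log2 scale in bone-marrow macrophages against wild-type microglia (SE 0.12, limma adjusted p = 0.0191) and was 0.55 higher in repopulating microglia than in bone-marrow macrophages (SE 0.11, limma adjusted p = 0.00507). The first of these calls ended when any 1 of the 5 libraries compared was left out, with limma adjusted p between 0.0509 and 0.126. Both calls also ended when libraries were scaled to equal totals (limma adjusted p = 0.078 and 0.0573). Against wild-type microglia, repopulating microglia had a log2 fold of 0.12 (-0.15 to 0.39, limma adjusted p = 0.56).

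Ikzf1 encodes Ikaros, a zinc finger factor of blood cell development. It lies on chromosome 11 at 11685003 to 11772926 on the plus strand. Ikzf1 had normalised counts of 2885 and 2993 in wild-type microglia, 2669, 2144 and 2813 in repopulating microglia, and 1449.7, 1557 and 1325 in bone-marrow macrophages. The bone-marrow libraries formed the lowest group without overlap, and the repopulating libraries lay between the bone-marrow and the wild-type libraries. The mean was 2.04 times higher in wild-type microglia and 1.76 times higher in repopulating microglia than in bone-marrow macrophages. Ikzf1 fell by 1.03 on the log2 scale in bone-marrow macrophages against wild-type microglia (SE 0.15, limma adjusted p = 0.00089), and was 0.81 higher in repopulating microglia than in bone-marrow macrophages (SE 0.13, limma adjusted p = 0.0022). Repopulating microglia had a log2 fold of -0.22 against wild-type microglia (-0.56 to 0.12, limma adjusted p = 0.383), which was not a call although the 2 groups did not overlap.

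**Figure D1:**
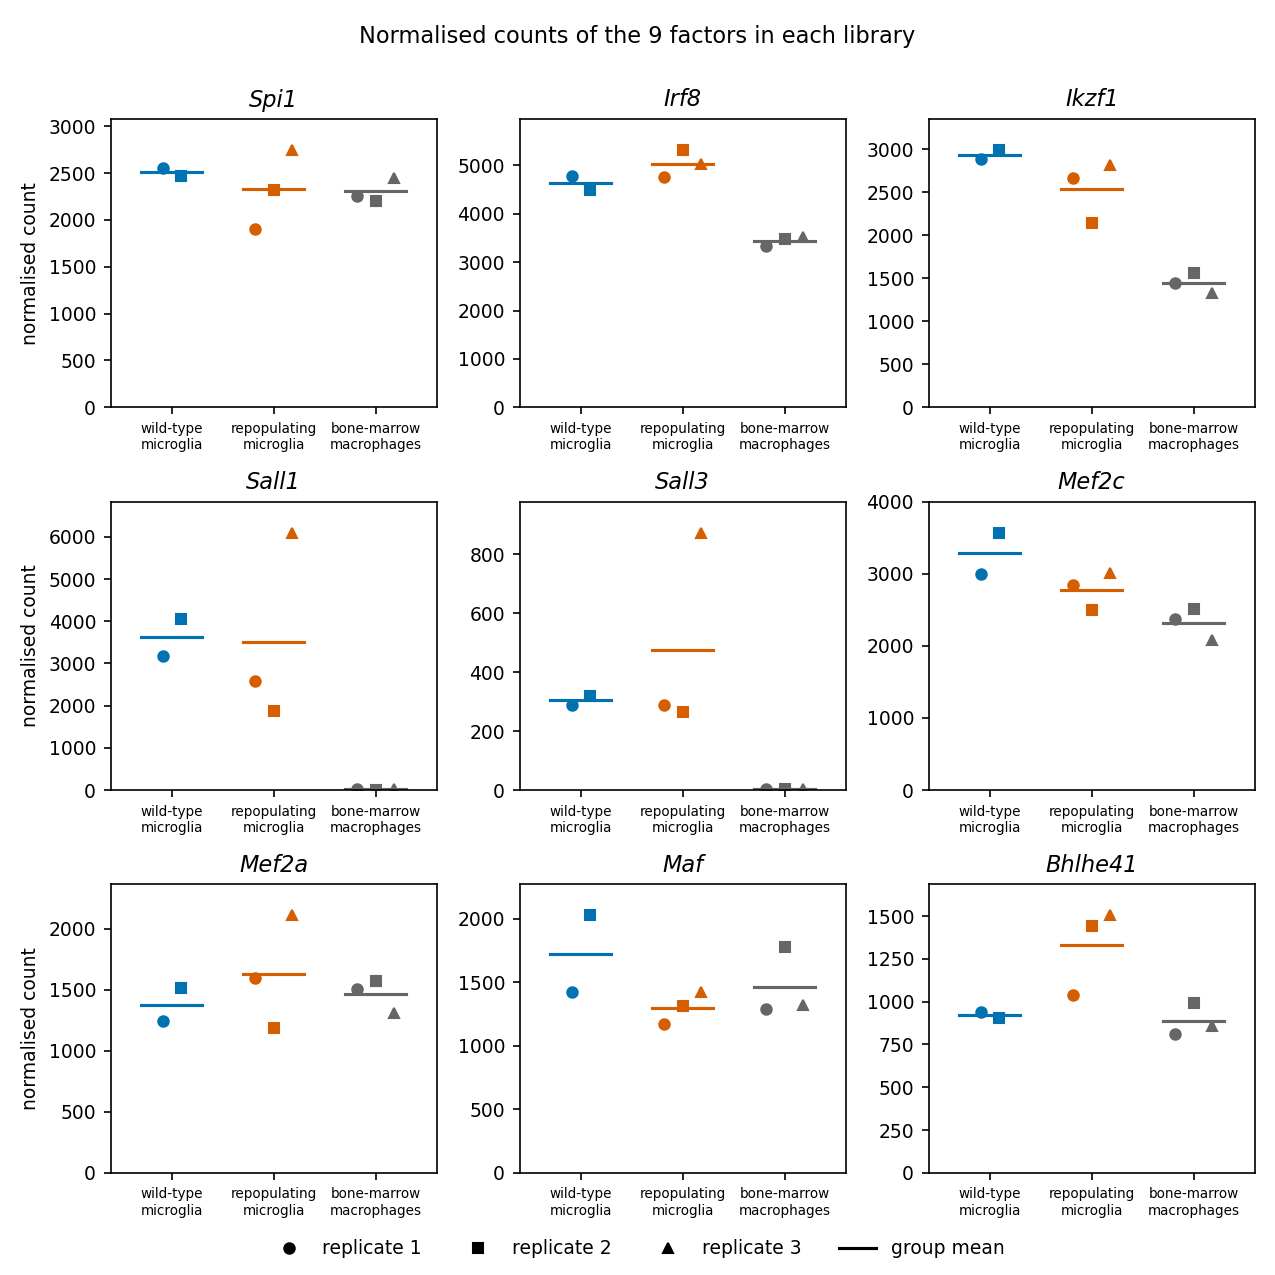
Normalised counts of the 9 transcription factors in each library, 1 panel a gene, with the group on the horizontal axis and the normalised count on the vertical axis, which starts at 0 and has its own scale in each panel. Points are libraries, with 1 shape a replicate, and lines are group means. Sall1 and Sall3 drop to at most 35.8 and 5.11 in bone-marrow macrophages, while the other 7 genes stay at or above 812 in every library.

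Sall1 separated both kinds of microglia from bone-marrow macrophages by the widest margin of the 9 genes. SALL1 is a zinc finger repressor, and the gene lies on chromosome 8 at 89027235 to 89044162 on the minus strand. Normalised counts of Sall1 were 3179.8 and 4056 in wild-type microglia, 2594, 1864 and 6101 in repopulating microglia, and 35.8, 9.55 and 15.0 in bone-marrow macrophages. The bone-marrow values stood for 63, 9 and 17 reads, so the gene was detected there in every library at a low level. Its mean was 179.9 times higher in wild-type microglia (3618 ± 619, SD, n = 2) and 175 times higher in repopulating microglia (3519.9 ± 2265, SD, n = 3) than in bone-marrow macrophages (20.1 ± 13.9, SD, n = 3). Without repopulating replicate 3 the second ratio was 111. In limma, Sall1 fell by 7.61 on the log2 scale in bone-marrow macrophages against wild-type microglia (SE 0.57, adjusted p = 3.17e-05), and repopulating microglia were 7.39 above bone-marrow macrophages (SE 0.51, adjusted p = 3.29e-05).

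Between the 2 kinds of microglia, Sall1 was not called in limma. The log2 fold of repopulating against wild-type microglia was -0.22 (95% interval -1.52 to 1.08, adjusted p = 0.838), an interval wide enough to hold a fall or a rise of more than 2-fold. The repopulating libraries lay on both sides of the wild-type ones. Replicates 1 and 2 lay below both wild-type libraries and replicate 3 lay above them, at 2.74 times the mean of the other two. Without replicate 3 the log2 fold was -0.71, and without replicate 2 it was 0.15, neither a call in limma.

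Sall3, a paralog of Sall1, was likewise far lower in bone-marrow macrophages than in either kind of microglia. The gene lies on chromosome 18 at 80966376 to 80986771 on the minus strand. Sall3 had normalised counts of 289.6 and 318 in wild-type microglia, 289, 264 and 873 in repopulating microglia, and 5.11, 4.24 and 2.65 in bone-marrow macrophages, where they stood for 9, 4 and 3 reads. The means were 304 ± 20.3 (SD, n = 2), 475 ± 345 (SD, n = 3) and 4.00 ± 1.25 (SD, n = 3). Wild-type microglia thus had 76.0 times and repopulating microglia 119 times the bone-marrow mean, or 69.1 times without repopulating replicate 3. In limma, Sall3 fell by 5.96 on the log2 scale in bone-marrow macrophages against wild-type microglia (SE 0.48, adjusted p = 4.73e-05), and repopulating microglia were 6.38 above bone-marrow macrophages (SE 0.43, adjusted p = 3.08e-05). Against wild-type microglia, repopulating microglia had a log2 fold of 0.42 (-0.68 to 1.52, adjusted p = 0.614 in limma), and -0.14 without replicate 3.

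Replicate 3 of the repopulating microglia was the highest library of all 8 for both SALL genes. Its Sall3 value was 3.16 times the mean of replicates 1 and 2. The coefficient of variation over the 3 repopulating libraries was 64.4% for Sall1 and 72.5% for Sall3, while its median over 7380 genes with a repopulating mean of at least 100 was 18.7% and its 90th percentile 45.3%. Replicate 3 was at least 2 times the mean of the others for 587 of these 7380 genes (7.95%). For the other 7 factors, replicate 3 was at 0.997 (Irf8) to 1.52 (Mef2a) times the mean of replicates 1 and 2. It was also the highest of all 8 libraries for Mef2a, Spi1 and Bhlhe41.

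Summed markers of bone-marrow-derived and border macrophages were lowest in the same replicate 3. The 12 monocyte and bone-marrow macrophage markers summed to 10793, 18922 and 3856 in repopulating replicates 1, 2 and 3, and the 8 border macrophage markers to 727, 1178 and 458. Among them Ms4a7 was at 320.2, 645 and 28.8 and Clec12a at 396, 669 and 34.6 in these libraries, and at 1209 to 1693 and 2233 to 2843 in bone-marrow macrophages. Cd163 (21.7, 14.8 and 38.0), Lyve1 (18.9, 4.43 and 44.9) and Cd209f (0.944, 0 and 3.46) were instead highest in replicate 3. Ly6c2 (23.6, 11.8 and 15.0) and Plac8 (326, 102 and 143) were lowest in replicate 2. Of the 3 repopulating libraries, replicate 3 thus had the highest SALL levels and the lowest sums of these markers, while its microglial marker sum of 350031 lay between those of replicates 1 and 2. The part of these cells in the SALL values was not tested.

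Transcripts of astrocytes, which belong to another lineage of the brain, varied among the same libraries. The 6 astrocyte markers summed to 1179.6 and 6518 in wild-type microglia, 266 to 2232 in repopulating microglia and at most 140.0 in bone-marrow macrophages. The largest part in the wild-type and repopulating libraries was Slc1a3, a glutamate transporter, at 987 and 6365 in wild-type, 1387, 182 and 1909 in repopulating and 17.0, 14.8 and 14.1 in bone-marrow libraries. Gfap (13.2 to 30.0) and Aqp4 (0 to 9.44) were low in all 8 libraries. Among the repopulating libraries, Slc1a2, Aldoc and Gja1 were highest in replicate 3. In replicates 1, 2 and 3 Slc1a2 had 25, 17 and 119 reads, Aldoc 47, 28 and 101, and Gja1 9, 3 and 39. The 7 neuronal markers summed to 18.8 to 48.8 in every library. Whether these astrocyte transcripts bear on the Sall1 values was not tested.

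**Figure D2:**
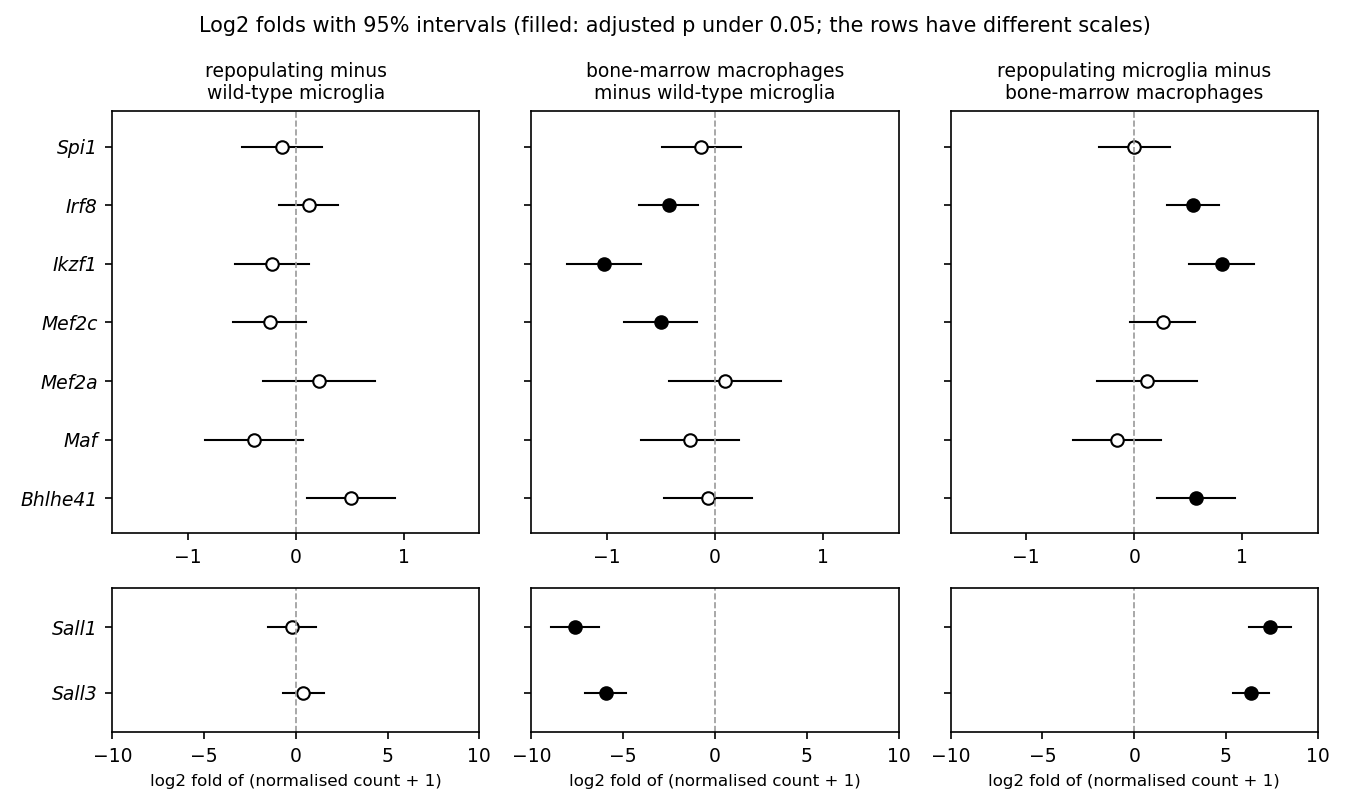
Log2 folds of (normalised count + 1) for the 9 genes in the 3 comparisons, with 95% limma intervals as lines and filled points for an adjusted p under 0.05. The lower panels, with a wider horizontal scale, hold Sall1 and Sall3, which lie more than 5 log2 units from 0 in both comparisons with bone-marrow macrophages and have intervals across 0 between the 2 kinds of microglia.

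Mef2c and Mef2a encode MADS-box activators of the same family, whose sites are common in microglial enhancers. Mef2c lies on chromosome 13 at 83504034 to 83667080 on the plus strand. Mef2c had normalised counts of 3002 and 3572 in wild-type microglia, 2846, 2493 and 3007 in repopulating microglia, and 2372, 2508 and 2077 in bone-marrow macrophages. Wild-type libraries stood above the bone-marrow libraries, and the repopulating range touched both. Mef2c fell by 0.50 on the log2 scale in bone-marrow macrophages against wild-type microglia (SE 0.15, limma adjusted p = 0.0245), a ratio of means of 1.42. This call ended without bone-marrow replicate 1 or 3 or wild-type replicate 2 (limma adjusted p = 0.0632, 0.0851 and 0.182) and with equal totals (0.105). The log2 fold was -0.24 for repopulating against wild-type microglia (-0.58 to 0.10) and 0.26 for repopulating against bone-marrow cells (-0.04 to 0.56), with no call in either.

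Mef2a differed less between groups than within them. It lies on chromosome 7 at 67231163 to 67372858 on the minus strand, and 302 exonic bases are shared with Lysmd4 on the opposite strand. The kit did not mark strand, so reads from those bases cannot be told apart. Its normalised counts were 1242 and 1513 in wild-type microglia, 1598, 1184 and 2111 in repopulating microglia, and 1508, 1576 and 1308 in bone-marrow macrophages, and all 3 ranges overlapped. Log2 folds were 0.21 (-0.31 to 0.73) for repopulating against wild-type microglia, 0.09 (-0.43 to 0.61) for bone-marrow macrophages against wild-type cells and 0.12 (-0.34 to 0.58) for repopulating against bone-marrow cells.

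Maf encodes c-MAF, a basic leucine zipper factor of tissue macrophages. It lies on chromosome 8 at 115682942 to 115707794 on the minus strand and shares 440 exonic bases with Gm15655 on the opposite strand. Maf had normalised counts of 1423 and 2028 in wild-type microglia, 1169, 1312 and 1422 in repopulating microglia, and 1292, 1778 and 1325 in bone-marrow macrophages. The highest repopulating library and the lowest wild-type library differed by less than 1 normalised count, so the 2 groups stood apart by that margin alone. The log2 fold of repopulating against wild-type microglia was -0.39 (-0.84 to 0.07, limma adjusted p = 0.254). For bone-marrow macrophages against wild-type cells it was -0.23 (-0.68 to 0.23), and for repopulating against bone-marrow cells -0.16 (-0.57 to 0.25), with no call.

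Bhlhe41 was the 1 factor with its highest level in repopulating microglia in all 3 libraries. It encodes a basic helix-loop-helix repressor of the clock network, and it lies on chromosome 6 at 145858243 to 145865558 on the minus strand. It shares 1280 exonic bases with Gm43909 on the opposite strand. Normalised counts were 942 and 904 in wild-type microglia, 1042, 1443 and 1504 in repopulating microglia, and 812, 989.5 and 855 in bone-marrow macrophages. All 3 repopulating libraries lay above the other 5, while the wild-type and bone-marrow ranges overlapped. Repopulating microglia were 0.57 above bone-marrow macrophages on the log2 scale (SE 0.16, limma adjusted p = 0.0257), with means of 1329.8 ± 251 (SD, n = 3) and 885 ± 92.7 (SD, n = 3). That call ended without bone-marrow replicate 1 or 3 or repopulating replicate 2 (limma adjusted p = 0.106, 0.0865 and 0.0638) and with equal totals (0.192). Against wild-type microglia the log2 fold was 0.51 (0.10 to 0.91), with an unadjusted p of 0.020 and an adjusted p of 0.116 in limma, so it did not pass. For bone-marrow macrophages against wild-type cells it was -0.06 (-0.47 to 0.34).

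To compare levels between genes, each normalised count was divided by the gene's exonic length in kilobases. This length merges the exons of all annotated transcripts of a gene, so the order between genes depends on that choice. Spi1 had the highest level per kilobase in all 3 groups, at 933 in wild-type microglia, 863 in repopulating microglia and 855 in bone-marrow macrophages, above about 96% of 10758 genes ranked. In wild-type microglia Sall1 (687) and Irf8 (657) followed, and their ranges overlapped. Then came Ikzf1 (509), Maf (209) and Mef2c (209), Bhlhe41 (137), Mef2a (93.8) and Sall3 (40.6) per kilobase. Of these neighbours in the order, only Sall1 with Irf8 and Maf with Mef2c overlapped between libraries.

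In repopulating microglia the order per kilobase was Spi1, Irf8 (714), Sall1 (669), Ikzf1 (440), Bhlhe41 (198), Mef2c (177), Maf (158), Mef2a (111) and Sall3 (63.6). Only Ikzf1 and Bhlhe41 were neighbours without overlap, so each other gene overlapped the next in the order. In bone-marrow macrophages Spi1 was followed by Irf8 (488), Ikzf1 (250), Maf (178), Mef2c (148), Bhlhe41 (132), Mef2a (99.7), Sall1 (3.82) and Sall3 (0.535). Sall1 per kilobase stood at the 95.2 percentile of genes in wild-type microglia, at the 94.95 percentile in repopulating microglia and at the 10.3 percentile in bone-marrow macrophages.

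**Figure D3:**
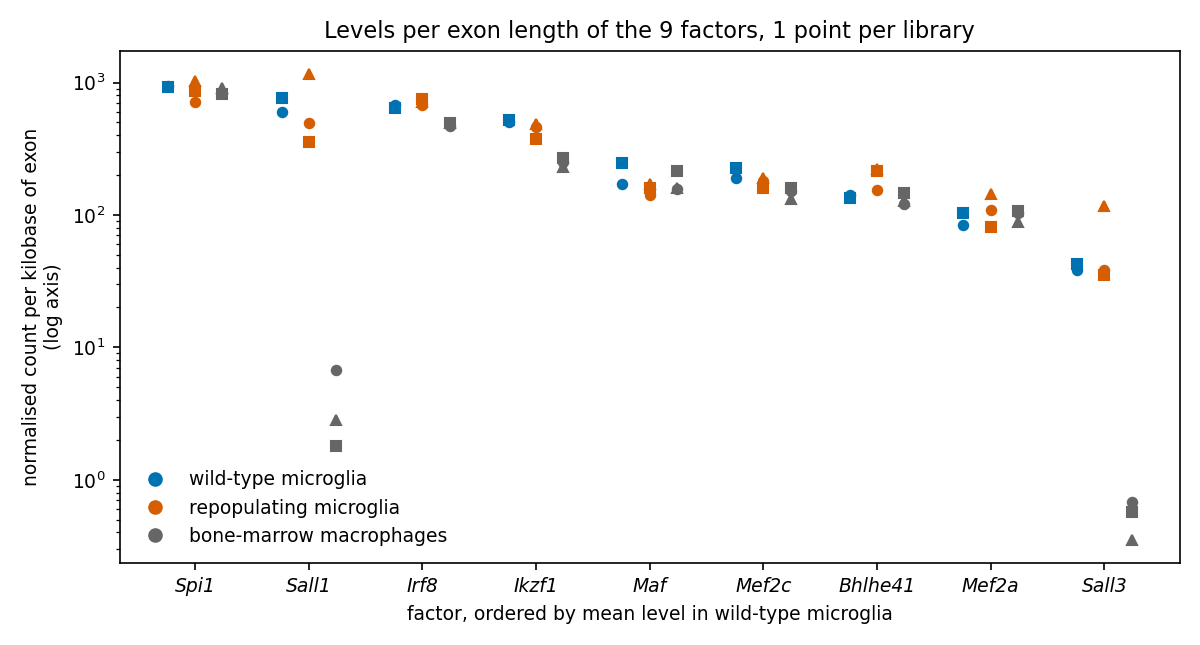
Normalised counts per kilobase of exon (log vertical axis) of the 9 genes in each of the 3 groups, with points for libraries, coloured by group and shaped by replicate. Spi1 leads in each group, and Sall1 falls from 687 and 669 per kilobase in the 2 kinds of microglia to 3.82 in bone-marrow macrophages.

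Ratios of related factors within 1 library do not depend on its size factor. They are given per kilobase as a description, without a test. Mef2c over Mef2a was 2.26 and 2.21 in wild-type microglia, 1.66, 1.97 and 1.33 in repopulating microglia and 1.47, 1.49 and 1.48 in bone-marrow macrophages. Both wild-type ratios lay above the other 6. Sall1 over Sall3 was 15.6 and 18.1 in wild-type microglia and 12.8, 10.03 and 9.93 in repopulating microglia, so Sall3 made up more of the pair in every repopulating library. In bone-marrow macrophages, where Sall3 had 3 to 9 reads, the ratio was 9.95, 3.20 and 8.05.

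Bhlhe41 over its paralog Bhlhe40 was 6.24 and 10.2 in wild-type, then 6.72, 6.71 and 22.9 in repopulating, and then 3.51, 3.53 and 2.78 in bone-marrow libraries, lower in every bone-marrow library than in any microglial library. Irf8 over Spi1, the genes of partner proteins, was 0.714 and 0.695, then 0.953, 0.875 and 0.698, and then 0.565, 0.604 and 0.547 in the same order of groups. Repopulating replicate 3 thus lay within the wild-type range of Irf8 over Spi1, and replicates 1 and 2 lay above it.

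**Figure D4:**
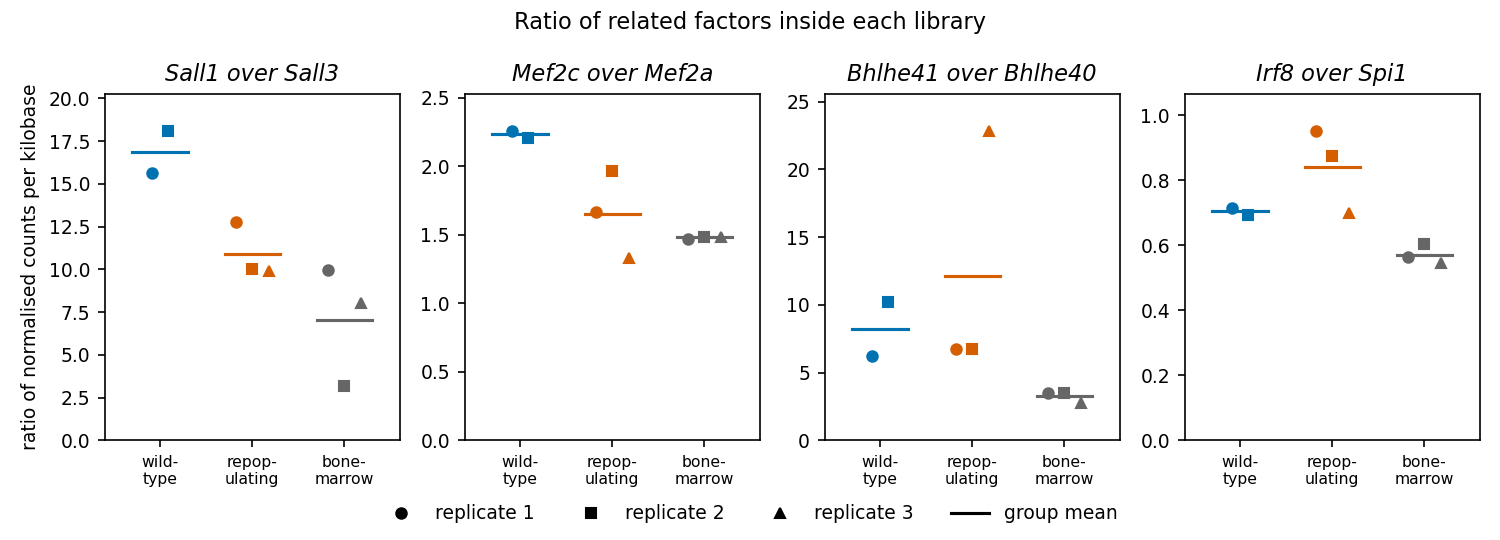
Ratios of normalised counts per kilobase between related factors, 1 point a library, by group, on vertical axes that start at 0 and differ between panels, with lines at group means. Mef2c over Mef2a was 2.26 and 2.21 in wild-type microglia and at most 1.97 elsewhere, and Bhlhe41 over Bhlhe40 and Irf8 over Spi1 were lowest in the bone-marrow libraries.

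Other genes around these factors were read from lists of their families and partners. Of 41 relatives in the Sall, Mef2, Irf, Ets, Maf and Bach, Bhlhe and Ikaros families, 34 were tested. In bone-marrow macrophages against wild-type microglia 11 were lower and 1 higher, where 22.2% of all genes were lower and 21.3% higher. Those of smallest adjusted p were the Ets factor Ets1, which fell by 2.24 on the log2 scale (limma adjusted p = 0.00119), Bach1, a repressor that pairs with small MAF proteins, by 0.86 (0.00154), Sall2 by 1.99 (0.0031) and the Ikaros paralog Ikzf2 by 2.63 (0.00593). The median log2 fold of the 34 was -0.39, beside -0.01 over all genes. Equal totals gave 8 lower and 3 higher, and leaving out wild-type replicate 1 or 2 gave 6 and 5 lower and none higher. Leaving out repopulating replicate 3 gave 19 lower and 5 higher. Over all 11415 genes, lower calls in these settings were 2069, 1456, 1537 and 3450, in place of 2532. Higher calls over all genes were 3000, 1411, 1504 and 3580, in place of 2428.

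In repopulating microglia against bone-marrow macrophages 7 of the 34 relatives were higher and 0 lower in limma, where 16% of all genes were higher and 14.9% lower, so the share higher is near that of all genes. Bach1 (0.76, adjusted p = 0.00211), Elk3 (0.75, 0.00289) and Ets1 (1.62, 0.00446) were among these. Equal totals gave 5 higher and 2 lower. In repopulating against wild-type microglia limma called 1 of 34, the small MAF protein gene Maff, where it called 8.61% of all genes. Maff was at 23.5 and 17.3 in wild-type and 53.8, 53.1 and 48.4 in repopulating libraries (log2 fold 1.32, limma adjusted p = 0.0386). Without repopulating replicate 3, 2 relatives were higher and 9 lower in this comparison. Over all 11415 genes limma then called 1693 higher and 1265 lower, in place of 555 and 428. The SALL relative Sall2 was at 237 and 247 in wild-type microglia, 78.4, 67.9 and 182 in repopulating microglia and 55.7, 59.4 and 66.1 in bone-marrow macrophages. Unlike Sall1 and Sall3, it was lower in each repopulating library than in either wild-type library, although limma made no call between the 2 kinds of microglia.

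Genes of the NuRD complex, the chromatin remodelling and deacetylase complex recruited by SALL1, went opposite to Sall1 between groups where they were called. Of 13 tested, 7 were higher and 0 lower in bone-marrow macrophages than in wild-type microglia, with a median log2 fold of 0.64, where 21.3% of all genes were higher and 22.2% lower. The leading ones were the subunits Mta3 (1.29, limma adjusted p = 0.00108) and Mbd2 (1.11, 0.00116) and the helicases Chd4 (2.51, 0.00291) and Chd3 (4.10, 0.00758). Chd4 was at 236 and 339.6 in wild-type, 672, 559 and 2013 in repopulating and 1557, 1587 and 1725 in bone-marrow libraries. Chd3 was at 5.34 and 17.3 in wild-type (5 and 17 reads), 21.7, 14.8 and 184 in repopulating and 161, 203 and 190 in bone-marrow libraries. Within the repopulating group both helicases were thus highest in replicate 3, as Sall1 was. In repopulating microglia against bone-marrow macrophages 0 of 13 were higher and 4 lower (14.9% of all genes were lower), led by Rbbp7 (-0.72, limma adjusted p = 0.00329). Limma called 0 of 13 between repopulating and wild-type microglia, where it called 8.61% of all genes. Without repopulating replicate 3, 4 of 13 were higher, where limma called 1693 of all 11415 genes higher in place of 555. DESeq2 called 3 of 13 and 1625 of all genes. Leaving out wild-type replicate 1 took the 7 higher than in wild-type microglia to 4. Leaving out bone-marrow replicate 1 or 2 took the 4 lower than in bone-marrow macrophages to 1. Over all genes, these settings took 2428 higher calls to 1411, and 1700 lower calls to 1006 and 1130.

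Class IIa histone deacetylases bind MEF2 factors and hold their targets silent. Of the 4 genes, 3 were higher and 0 lower in bone-marrow macrophages than in wild-type microglia, where 21.3% of all genes were higher. Hdac9 was at 119.7 and 127 in wild-type microglia, 197, 202 and 199 in repopulating microglia and 346, 399 and 334 in bone-marrow macrophages. The 3 groups of Hdac9 did not overlap, with repopulating microglia between the other groups. Hdac9 was called in all 3 comparisons by limma, at a log2 fold of 0.69 for repopulating against wild-type microglia (adjusted p = 0.0242), 1.53 for bone-marrow macrophages against wild-type cells (adjusted p = 9.54e-05) and -0.84 for repopulating against bone-marrow cells (adjusted p = 0.00153). Hdac4, also higher in bone-marrow macrophages (3.21, limma adjusted p = 0.0031), was at only 2.14 and 7.12 in wild-type microglia.

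Genes known as targets of PU.1 and IRF8 were called in both directions. Of 11 tested, 3 were higher and 6 lower in bone-marrow macrophages than in wild-type microglia, and 5 were higher and 3 lower in repopulating microglia than in bone-marrow macrophages. Of all genes 21.3% were higher and 22.2% lower in the first of these, and 16% and 14.9% in the second. Csf2ra, the alpha chain of the GM-CSF receptor, was at 328 and 321 in wild-type microglia, 966, 1015 and 903 in repopulating microglia and 1591, 1692 and 2197 in bone-marrow macrophages. It rose by 1.56 in repopulating against wild-type microglia (limma adjusted p = 0.00162). Cst3, a secreted protease inhibitor abundant in microglia, went the other way, at 220908 and 218625, then 132308, 103168 and 144479.7, and then 33257, 31444 and 32479 in the same order of groups. It fell by 0.81 in repopulating against wild-type microglia (limma adjusted p = 0.0451), and its log2 fold in bone-marrow macrophages against wild-type cells was -2.76 (3.04e-05).

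The G-CSF receptor gene Csf3r had its highest values in repopulating microglia, at 3382, 2872 and 4639, above wild-type libraries at 2125 and 1768 and bone-marrow libraries at 573, 753 and 707. Its log2 fold of repopulating against wild-type microglia was 0.88 (limma adjusted p = 0.0415). These 3 genes were the only ones of the 11 called between the 2 kinds of microglia, where limma called 8.61% of all genes. Leaving out any 1 of the libraries other than repopulating replicates 2 and 3 left 1 call. Spi1 itself differed by at most 0.13 in log2 fold between groups. Irf8 had called log2 folds of -0.43 for bone-marrow against wild-type cells and 0.55 for repopulating against bone-marrow cells. Whether either factor bears on the levels of these targets was not tested.

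Clock genes, the network in which BHLHE41 acts, were lower in bone-marrow macrophages for 6 of 12 and higher for 0 of 12, with a median log2 fold of -1.07, where 22.2% of all genes were lower and 21.3% higher. Tef, a PAR-domain activator, fell by 2.09 (limma adjusted p = 0.000213) and the nuclear receptor gene Nr1d2 by 1.43 (0.000439). In repopulating microglia against bone-marrow macrophages 5 were higher and 0 lower (16% of all genes were higher), or 4 and 1 with equal totals. Between repopulating and wild-type microglia limma called 1 of 12, Hlf, which is near the 8.61% of all genes called. Hlf was at 149.6 and 210.5 in wild-type and 22.7, 8.86 and 39.2 in repopulating libraries (log2 fold -3.08, limma adjusted p = 0.0417). That call ended when either wild-type library, repopulating replicate 1 or 2 or bone-marrow replicate 1 was left out.

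Factors that mark macrophages of other tissues were mostly low. Of 8 listed, 6 were tested. In bone-marrow macrophages against wild-type microglia 1 was higher (Rarg) and 1 lower (Id3), where 21.3% of all genes were higher and 22.2% lower. In repopulating microglia against bone-marrow macrophages 0 were higher and 2 lower (Rarg and Pparg), where 16% of all genes were higher and 14.9% lower. Limma called 0 of 6 between the 2 kinds of microglia, where it called 8.61% of all genes. Rarg, a retinoic acid receptor, was at 144, 135 and 166 in bone-marrow macrophages, 32.1 and 63.0 in wild-type microglia and 30.2, 41.3 and 24.2 in repopulating microglia. It was 1.69 higher in bone-marrow macrophages than in wild-type microglia (limma adjusted p = 0.00379), and fell by 2.21 in repopulating microglia against bone-marrow macrophages (0.000726). Id3, an inhibitor of helix-loop-helix factors that marks liver macrophages, was at 12.8 and 29.5 in wild-type, 1.89, 7.38 and 15.0 in repopulating and 2.27, 2.12 and 0 in bone-marrow libraries, with a log2 fold of -3.24 for bone-marrow against wild-type cells (limma adjusted p = 0.0153). Pparg, the nuclear receptor of alveolar macrophages, was at 19.2 and 7.12, then 1.89, 4.43 and 3.46, and then 17.6 to 26.5 in the same order of groups, with a log2 fold of -2.37 for repopulating against bone-marrow cells (limma adjusted p = 0.00527).

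**Figure D5:**
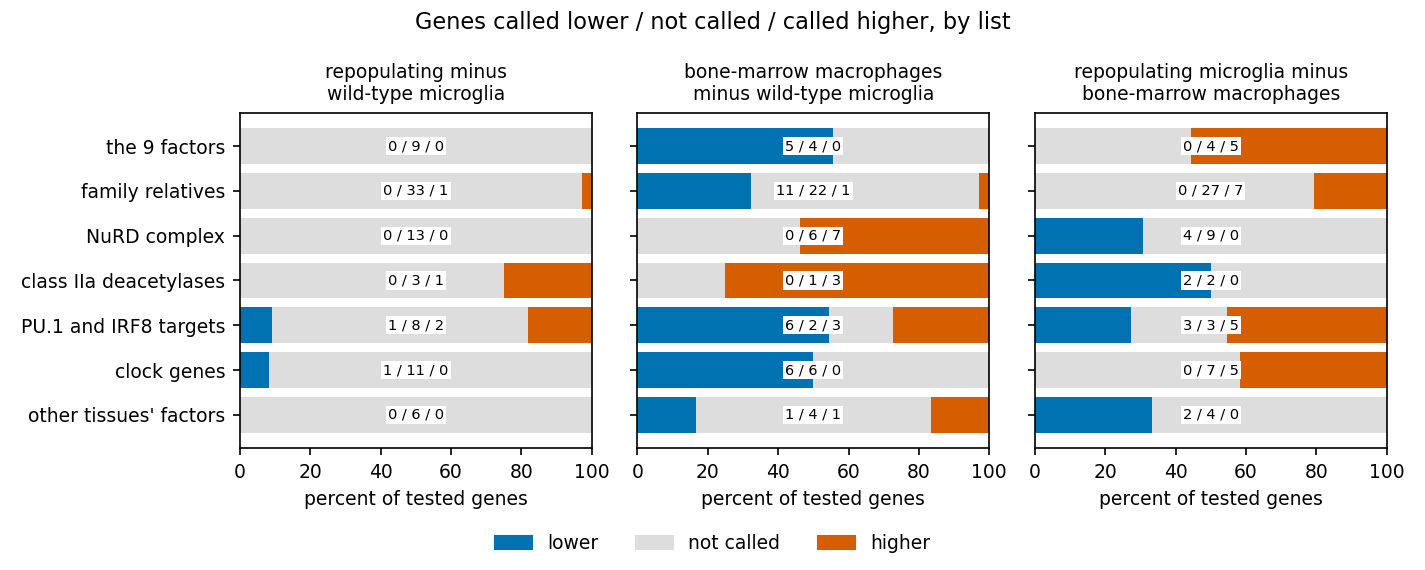
Percent of the tested genes of each list that were lower, not called or higher in each of the 3 comparisons (limma, adjusted p under 0.05), as stacked horizontal bars with the numbers of genes printed in that order. Of the 9 factors 0 are called between the 2 kinds of microglia, 5 are lower in bone-marrow macrophages than in wild-type microglia, and 5 are higher in repopulating microglia than in bone-marrow macrophages.

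Genes of like pattern were sought by Pearson correlation of log2(normalised count + 1) with each factor over the 8 libraries, among 7311 genes with a mean of at least 100. The points fall in 3 groups and share size factors, so these values are descriptions. The genes closest to Sall1 were Rab3ip (r = 0.994), Pag1 (0.993) and Klk8 (0.992), and those closest to Sall3 were Slc39a8 (0.996), Pag1 (0.996) and Tal1 (0.995). Pag1 was thus among the closest 3 for both SALL genes. The closest to Ikzf1 were Ecscr (0.996), Csmd3 (0.994) and Rhobtb1 (0.994), and to Irf8 Sowahc (0.991), Abtb1 (0.988) and Ypel3 (0.985).

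The other factors had fewer close companions. The highest r was 0.983 for Mef2a (Wac), 0.981 for Mef2c (Pias3), 0.952 for Spi1 (Bcl2l1), 0.938 for Bhlhe41 (Tcirg1) and 0.868 for Maf (Gcdh). At r of at least 0.95 there were 311 genes for Ikzf1, 255 for Sall3, 249 for Sall1 and 78 for Irf8, against 9 for Mef2c, 3 for Mef2a, 1 for Spi1 and 0 for Bhlhe41 and Maf. The 4 factors with the most companions were those called in both comparisons with bone-marrow macrophages. Both counts and calls reflect the same differences between groups in the same libraries, so they are not separate evidence.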

How the data were processed

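Libraries came from the unstranded TruSeq RNA v2 kit, per the labels' protocols. The submitters' processing notes name TopHat2 2.0.10, Bowtie2 2.1.0.0, DESeq 1.14.0, HTSeq and build mm10, without settings. The deposited table holds a signal, which is each gene's read count after division, by the authors, by a size factor for its library. Every value was a whole multiple of 1 read (100% within 0.01 reads), which gave back whole reads. Columns were assigned to samples through their names, and the columns left after the repopulating and control ones were assigned to bone-marrow macrophages. No 2 replicates agreed within counting noise, and none was dropped.

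The filter asked for 10 normalised counts in 2 libraries or more. Tests were two-sided, in 1 limma 3.58.1 fit (R 4.3.3) over 8 libraries with a variance trend and a pseudocount of 1, so log2 folds understate changes of low genes. The script was tested on simulated data. Alternatives were edgeR 4.0.16 and DESeq2 1.42.0 on the whole reads, other pseudocounts, filters, scalings and fits, and leaving out each library. Members and lists were chosen with earlier results of these data known. All 9 members are named. Of each list, up to 4 genes past the threshold with the smallest adjusted p per comparison are named (1 item is not reported here), and for each member the 3 genes of most like pattern were sought. Which of the named list genes are shown by library was chosen after their values were seen. Promoters came from RefSeq and gene positions from GENCODE vM21.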

Additional observations from a re-analysis of the deposited data

How the results depend on the processing

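Of 567 recomputed log2 folds (27 member results under 21 alternatives), 528 kept their direction and their side of the threshold, 20 lost a call, 1 gained a call and 18 changed sign, none of the last in a called result. In bone-marrow macrophages against wild-type microglia the number of factors called by limma was 5, but 3 with equal totals and 3 with quantile normalisation, and 3 to 5 when 1 library was left out. In repopulating microglia against bone-marrow macrophages it was 5, but 3 with equal totals, 3 with quantile normalisation and 4 to 5 with 1 library left out. It was 0 in repopulating against wild-type microglia under all 21 alternatives. The cause of these changes was not tested. Irf8 lost its calls with quantile normalisation (limma adjusted p = 0.0537 and 0.0561), as did Mef2c (0.0555) and Bhlhe41 (0.063). Mef2c gained a call with library weights in repopulating microglia against bone-marrow macrophages (limma adjusted p = 0.0463).

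The log2 folds that changed sign were small. In repopulating against wild-type microglia they were Irf8 at -0.01 with quantile normalisation, Sall3 at -0.03 with library weights and -0.14 without repopulating replicate 3, Spi1 at 0.01 without repopulating replicate 1, and Sall1 at 0.15 without repopulating replicate 2. In bone-marrow macrophages against wild-type microglia they were Bhlhe41 at 0.08 with equal totals, 0.00 with TMM, 0.01 with quantile normalisation and 0.01 with edgeR, Spi1 at 0.02 with equal totals, Mef2a at -0.05 without wild-type replicate 1, and Maf at 0.03 without wild-type replicate 2. In repopulating microglia against bone-marrow macrophages they were Mef2a at -0.13 with equal totals, -0.02 with quantile normalisation and -0.09 without repopulating replicate 3, and Spi1 at 0.02 with DESeq2, 0.05 without bone-marrow replicate 3 and 0.13 without repopulating replicate 1. Leaving out 1 library gave log2 folds in repopulating against wild-type microglia of -0.71 to 0.15 for Sall1, -0.14 to 0.73 for Sall3 and -0.26 to 0.01 for Spi1. In the second comparison it gave -0.48 to 0.03 for Maf and -0.05 to 0.23 for Mef2a, and in the third -0.09 to 0.33 for Mef2a.

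Replicate numbers are shared between groups, but same-numbered libraries deviated together with correlations from -0.24 to 0.244, so the numbers were not taken to pair them. With the replicate block, limma called 0, 4 and 5 factors in the 3 comparisons, and the call lost was Mef2c in bone-marrow macrophages against wild-type microglia. With the block, calls over all genes were 733, 4811 and 3564.

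Groups of 2 and 3 libraries limit the precision of these results. In bone-marrow macrophages the size of the Sall1 and Sall3 folds rests on few reads. Calls over all genes in repopulating against wild-type microglia ranged widely with the library left out, from 67 to 2958, and were 78 when the other group was not in the fit.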
